A study of Mus musculus with 11 samples.

Results

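The genes described here are the interleukins, the tumour necrosis factor (TNF) superfamily and their receptors, with Csf2, Csf3, Lif, Osm, Osmr and Lifr, as measured by RNA sequencing of 11 mouse high-grade gliomas. They were picked by gene symbol among the protein-coding genes of the count table, Il33 and the Ilf genes left aside, which gave 117 of 27687 genes. Of these, 82 had enough reads to be tested and 35 did not. All tumours grew after intracranial injection of glioma initiating cells (GICs) into NOD-SCID mice, a strain that lacks working T and B lymphocytes but keeps myeloid cells. The GICs were neural stem cells of the subventricular zone of 7-day-old mice with the conditional alleles p53;Ink4a/Arf;Krasv12;LucR, recombined in culture with a lentiviral Cre driven by the CMV promoter. The cells of both groups, controls included, had received FH1-tUTG-shEzh2, a doxycycline-inducible hairpin against the histone methyltransferase Ezh2, and had been sorted for GFP. By their labels, 9 of the tumours had Ezh2 knocked down and 2 served as controls. The treatment label gives doxycycline at 2 mg/ml with 1% sucrose for all 11, whereas the series' design text speaks of mice with or without the drug, so that an effect of doxycycline and one of the hairpin cannot be told apart. No tumour with a hairpin against another target was analysed here.

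Interleukins and TNF ligands are signalling proteins released or displayed mainly by immune cells, glia and stroma. Interleukin receptors act mostly through JAK kinases and STAT factors, while the receptors of the IL-1, IL-17 and TNF families act through adaptor proteins that lead to NF-kB, MAP kinases or, for TNF receptors with a death domain, cell death. In gliomas these genes are known from microglia, infiltrating macrophages and the tumour cells themselves, and the gp130 cytokines LIF and IL-6 are known for their action on neural stem cells.

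The libraries held between 11209233 and 18638382 counts. Levels are given as CPM after TMM scaling of the libraries. Each count was divided by the library's total over the 16241 tested genes, which hold 99.9% of all counts, per 1000000. On this scale 3 counts correspond to between 0.162 and 0.273 CPM. Ezh2 lay between 7.27 and 30.4 CPM in the knockdown tumours and at 45.3 and 52.7 CPM in the controls (exact two-sided permutation p = 0.018, the smallest that 55 splits allow). Xist, expressed from the inactive X chromosome, was above 10 CPM in both controls and 5 of the 9 knockdown tumours, and at 1.10 CPM or less in the other 4. Myeloid and mast cell markers were lower in the knockdown tumours. The summed level of 16 macrophage and microglia markers was between 518 and 1122 CPM in the knockdown tumours. It was 1397 and 3472 CPM in controls 1 and 2. Of these markers 12 fell and 0 rose (75% lower, against 13.0% of all tested genes). Every knockdown tumour lay below both controls for 7 of the 16 (43.8%, against 13.8% of all tested genes). Without Cd74, at 216 and 1091 CPM in the controls, the sum was between 475 and 1081 CPM against 1181 and 2381 CPM. The sum of 12 neutrophil markers, 9 of the 11 tested lower, was between 21.1 and 120 CPM against 503 and 914 CPM, and that of 9 mast cell markers, 8 lower, between 13.7 and 74.1 CPM against 212 and 288 CPM. Mmp9 made up most of the neutrophil sum in the controls, at 283 and 835 CPM, and without it the sum was between 7.38 and 19.02 CPM against 220 and 79.7 CPM, so that control 1 was then the higher control. Kit, the mast cell marker that did not pass, made up most of that sum in most knockdown tumours. Without it the sum was between 0.183 and 32.5 CPM (median 4.94) against 199 and 265 CPM. The highest, 32.5 CPM, was that of knockdown 8, at 43.5 CPM with Kit. These sums without 1 gene were added after the values were seen. Of 10 endothelial and pericyte markers 2 rose and 2 fell, of 7 fibroblast markers 1 and 1, and of 7 neuronal markers 2 and 0. Of 6 tested T and NK cell markers 1 rose and 2 fell, and of 4 tested B cell markers 0 and 0. Of all 16241 tested genes 10.3% rose and 13.0% fell, and these short lists cannot be told from such shares by 1 or 2 genes. Cd3e, Cd3d and Cd8a of the T and NK cell list did not exceed 0.251 CPM in any tumour and Cd3g did not exceed 0.916 CPM. In the same list Lck rose from 1.77 and 2.00 CPM to between 3.98 and 8.06 CPM, while Cd4 and Klrb1c fell by 2.72 ± 0.54 and 3.67 ± 0.55 on the log2 scale. Of 9 markers of neural stem cells and glioma 5 fell and 0 rose, with sums between 2492 and 3878 CPM against 7368 and 6345 CPM. Vim made up most of this sum in the controls, at 4950 and 5136 CPM. Gfap (2.03 ± 0.81) and Prom1 (1.62 ± 0.92) went the other way on the log2 scale without passing. In bulk tumour RNA, fewer cells of a type and less RNA per cell cannot be told apart.

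Of the 82 tested cytokine and receptor genes, 18 were lower and 10 higher in the knockdown tumours (edgeR quasi-likelihood test, adjusted p under 0.05). The 18 lower genes make up 22.0% of those tested, where 13.0% of all 16241 tested genes were lower. The 10 higher genes make up 12.2%, close to the 10.3% of all genes. In both directions together 34.1% were called, against 23.3% of all genes. The median log2 fold change of the 82 genes was -0.12, and that of all tested genes 0.07. By role, 6 of 27 tested ligands were lower and 1 was higher, while among 47 signalling receptors 9 were lower and 8 higher. Of the 5 decoy or soluble receptors tested, 2 were lower and 1 was higher. Every knockdown tumour lay below both controls for 20 of the 82 genes (24.4%, against 13.8% of all tested genes) and above both for 10 (12.2%, against 13.3%). The filter asks for reads in only 2 libraries, so that a scarce gene can enter through 1 group. Csf2, Tnfrsf8 and Il20ra entered only with the controls, where they are high, and Tnfrsf13c only through the knockdown tumours. For such genes only 1 direction could be called, among members and all genes alike, and the shares are no test. The calls rest on 2 controls that differ from each other. With control 1 left out 9 genes were lower and 3 higher (13.6% called, against 7.61% of all genes), and with control 2 left out 8 and 3 (12.5%, against 10.4%), the lone control then being assumed to vary like the knockdown tumours. Il1rn, Il17rc, Tnfrsf12a, Il21r and Il11ra1 passed in both cases, and 12 of the 28 genes passed in neither.

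**Figure D1:**
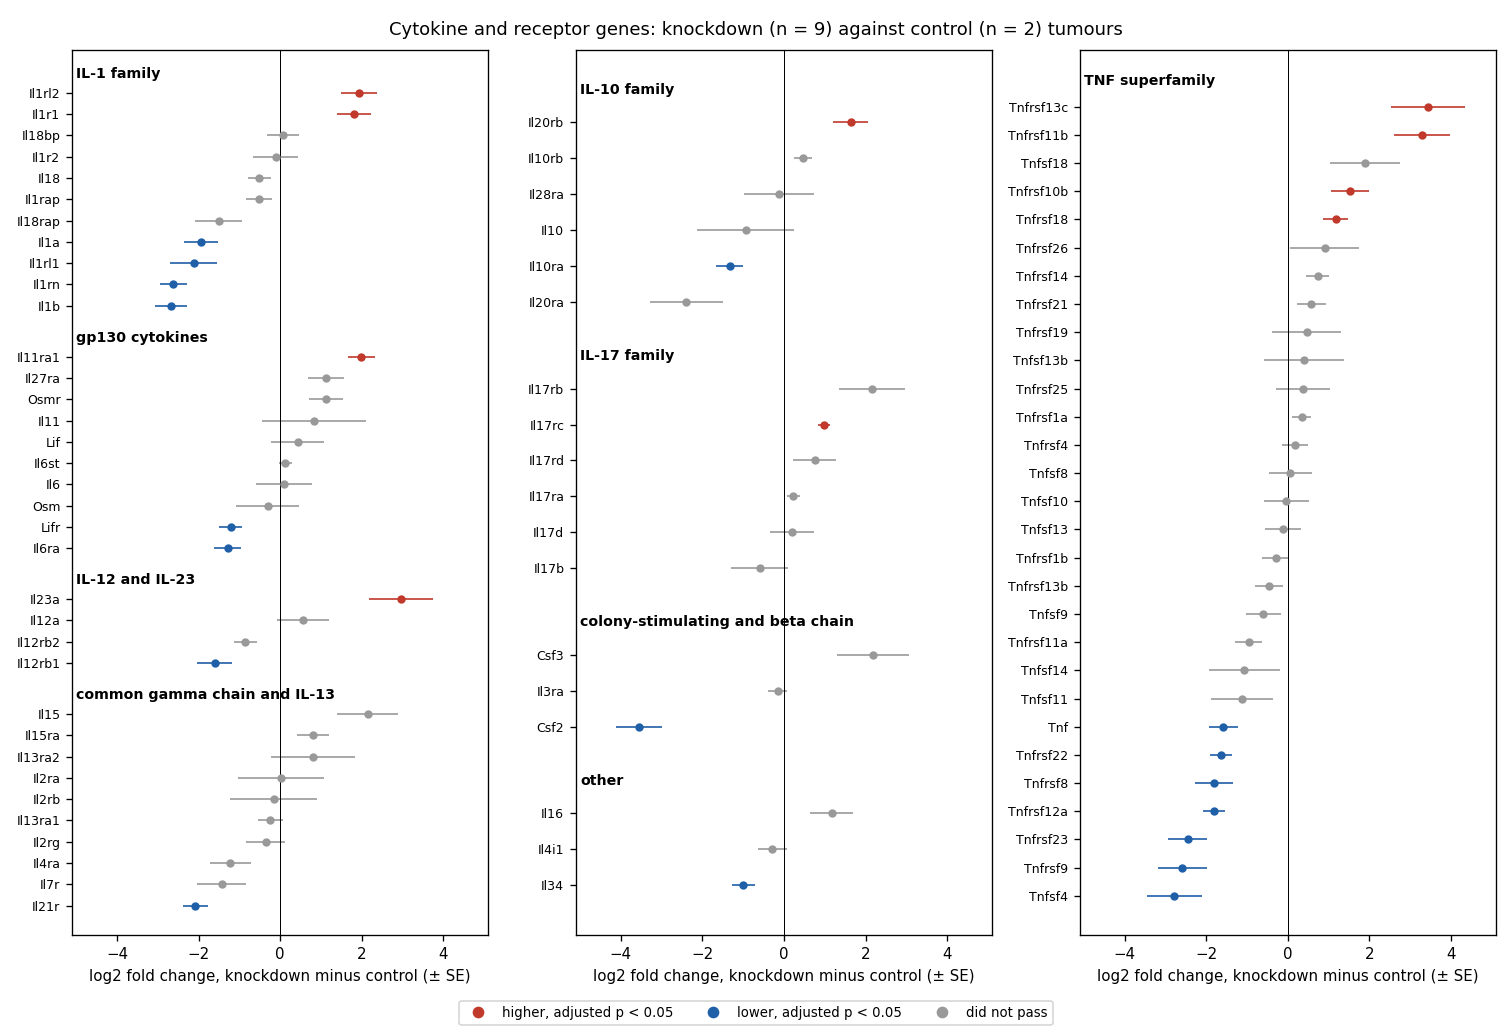
Log2 fold change of the 82 tested genes, knockdown minus control, with its standard error on the horizontal axis and genes grouped by family on the vertical axis; red and blue mark genes higher and lower at an adjusted p under 0.05. The TNF superfamily and the IL-1 family hold 17 of the 28 called genes, on both sides of 0. These are 11 of 29 and 6 of 11 tested genes (37.9% and 54.5%). Of all 82 genes 34.1% were called, and of all tested genes 23.3%.

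Per kilobase of exon, the receptors Tnfrsf1a, the main TNF receptor of most cells, and Tnfrsf21, a death receptor of neural tissue, stood highest over all tumours, at 70.1 and 69.4 CPM per kilobase. Tnfrsf12a and Il4ra followed at 54.5 and 36.5 CPM per kilobase. The ligands with the highest levels on this scale were Il34 at 27.5 and Il11 at 24.3 CPM per kilobase, which did not differ beyond the spread of Il11 over tumours. Tnfrsf1a (log2 fold change 0.34 ± 0.23 SE, adjusted p = 0.30) and Tnfrsf21 (0.58 ± 0.36, adjusted p = 0.26) did not pass the test.

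To show the regulatory sequence in front of genes that went different ways, the 250 bases before the start site are given for the lower genes Tnfrsf12a and Il21r and the higher genes Il17rc and Il1rl2. These were the called genes with the smallest p in each direction for which RefSeq (GRCm38.p6) lists a single start. CpG dinucleotides, the feature that CpG islands and much Polycomb binding in stem cells are known for, are in capitals, 5′ to 3′ on the strand of the gene.
Tnfrsf12a (chr17:23677450-23677699, minus strand): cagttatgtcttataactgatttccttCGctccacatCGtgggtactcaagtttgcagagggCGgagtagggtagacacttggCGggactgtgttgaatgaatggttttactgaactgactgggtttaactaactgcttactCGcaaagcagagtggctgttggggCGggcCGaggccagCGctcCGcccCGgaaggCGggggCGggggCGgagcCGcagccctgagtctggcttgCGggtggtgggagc
Il21r (chr7:125603179-125603428, plus strand): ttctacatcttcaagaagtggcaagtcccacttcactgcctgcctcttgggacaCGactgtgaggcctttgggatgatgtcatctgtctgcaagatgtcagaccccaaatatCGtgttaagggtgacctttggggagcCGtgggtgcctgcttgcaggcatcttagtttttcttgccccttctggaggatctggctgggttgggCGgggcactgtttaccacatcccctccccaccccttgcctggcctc
Il17rc (chr6:113471205-113471454, plus strand): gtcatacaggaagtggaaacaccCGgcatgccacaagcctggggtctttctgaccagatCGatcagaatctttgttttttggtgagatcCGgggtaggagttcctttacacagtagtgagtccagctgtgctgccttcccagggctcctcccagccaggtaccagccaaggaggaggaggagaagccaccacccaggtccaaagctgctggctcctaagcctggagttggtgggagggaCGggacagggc
Il1rl2 (chr1:40324339-40324588, plus strand): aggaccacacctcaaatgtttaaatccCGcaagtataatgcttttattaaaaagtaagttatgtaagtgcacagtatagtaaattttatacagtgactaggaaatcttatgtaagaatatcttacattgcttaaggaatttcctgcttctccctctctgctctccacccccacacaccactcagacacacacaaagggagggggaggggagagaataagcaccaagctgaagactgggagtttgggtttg
Tnfrsf12a held 15 CpGs, Il21r and Il17rc held 4 each, and Il1rl2 held 1. Windows matched by symbol were found for 91 of the 117 genes, 75 of them with a single start. Among the single-start genes the median was 2 CpGs in the 5 that rose (between 1 and 10), 8 in the 9 that fell (between 2 and 18) and 7 in the 35 that did not pass, where the median over all 32851 windows was 6. The AP-1 motif TGANTCA, searched on both strands, was in 16% of the 75 windows and in 6.75% of all windows, and the STAT motif TTCNNNGAA in 14.7% and 7.02%. An NF-kB and a CRE motif were in 2 and 0 of the 75 windows. Among the 14 called genes with 1 start, AP-1 letters were in the windows of Il1a and Tnfrsf8 and STAT letters in that of Tnfrsf18. A match is a description of sequence and not a binding site.

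In the IL-1 system, IL-1α and IL-1β signal through Il1r1 with Il1rap and are opposed by the antagonist Il1rn. Here 2 of 3 tested ligands and the antagonist were lower, while 2 of 5 tested receptors rose and 1 fell. In the whole family 4 of 11 tested genes fell and 2 rose (36.4% and 18.2%, against 13.0% and 10.3% of all tested genes). Il1b ranged from 3.37 to 10.1 CPM in the knockdown tumours, with a median of 6.63, and stood at 21.5 and 64.3 CPM in controls 1 and 2. Every knockdown tumour lay below both controls, and the controls differed from each other by more than the knockdown tumours did in absolute terms. The log2 fold change was -2.67 ± 0.40 (SE; edgeR, adjusted p = 0.00098). Without control 2 it was -1.68 and no longer passed (adjusted p = 0.0502), and without control 1 it was -3.26. Il1a, at its neighbouring locus, was scarce, between 0.273 and 1.59 CPM with a median of 1.07, against 2.85 and 5.58 CPM. It fell by 1.93 ± 0.42 on the log2 scale (adjusted p = 0.0078; -1.37 and adjusted p = 0.15 without control 2). The antagonist Il1rn had the smallest p of all 82 genes. It ranged from 3.29 to 7.73 CPM with a median of 4.71, against 20.8 and 46.5 CPM, a change of -2.62 ± 0.33 on that scale (adjusted p = 0.00042), which was -1.93 and still passed without control 2. The ratio of Il1rn to Il1b reads, computed after the values were seen, lay between 0.400 and 1.29 in the knockdown tumours and at 0.968 and 0.722 in the controls, so that the groups overlapped. Il18, a related ligand, was at 6.37 ± 1.54 CPM (SD, n = 9) against 7.77 and 10.4 CPM and did not pass (-0.51 ± 0.28, adjusted p = 0.21).

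Il1r1, the signalling receptor of IL-1, ranged from 50.2 to 171 CPM with a median of 131, and was at 39.2 and 31.4 CPM in the controls. No knockdown tumour reached down to the controls, and knockdown 9 came nearest. The log2 fold change was 1.81 ± 0.42 (edgeR, adjusted p = 0.010), 1.97 without control 1 and 1.65 without control 2 (adjusted p = 0.075 and 0.097). Its neighbour Il1rl2, the receptor of the IL-36 cytokines, ranged from 6.11 to 20.8 CPM (median 15.0) against 3.54 and 4.26 CPM, again with knockdown 9 lowest, and rose by 1.93 ± 0.44 (adjusted p = 0.0092; 0.10 without control 1 and 0.0615 without control 2). The IL-36 ligands measured, Il1f6 and Il1f9, had 1 and 38 counts over all 11 tumours and were not tested. Il1rl1, also called ST2, which mast cells are known to express, went the other way, from 5.85 and 9.40 CPM in the controls to between 0.366 and 3.46 CPM (-2.12 ± 0.57, adjusted p = 0.021; 0.073 and 0.18 without control 1 or 2). The accessory chain Il1rap (-0.52 ± 0.32, adjusted p = 0.26) and the decoy receptor Il1r2 (-0.11 ± 0.55, adjusted p = 0.90) did not pass. Il18rap, a chain of the IL-18 receptor, was lower in every knockdown tumour, at between 0.891 and 8.18 CPM against 11.8 and 10.4 CPM, but did not pass (-1.51 ± 0.58, adjusted p = 0.080). These receptor genes, Il1r2, Il1r1, Il1rl2, Il1rl1, Il18r1 and Il18rap, lie in that order on chromosome 1 between 40141613 and 40608550 of mm9. Within these 467 kb, 2 of the 5 tested genes rose and 1 fell, where 10.3% and 13.0% of all tested genes did.

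**Figure D2:**
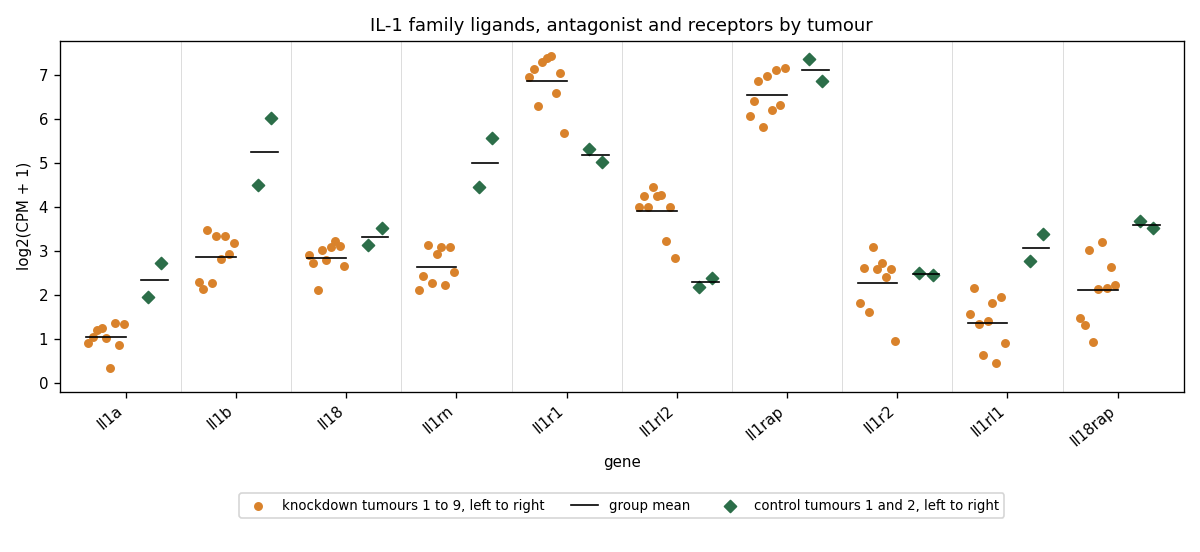
Level of IL-1 family genes in each tumour, as log2(CPM + 1) on the vertical axis with genes on the horizontal axis; circles are knockdown tumours 1 to 9, diamonds controls 1 and 2, and bars the group means. Il1a, Il1b, Il1rn and Il1rl1 lie below both controls in all 9 knockdown tumours, and Il1r1 and Il1rl2 above both.

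The ligands Il1a and Il1b and the antagonist Il1rn are known to be made chiefly by myeloid cells, and both they and the myeloid markers were lower in the knockdown tumours. Control 2, with 64.3 CPM of Il1b, had a macrophage and microglia sum of 3472 CPM, and control 1, with 21.5 CPM, one of 1397 CPM. Among the knockdown tumours the order was not fully shared. Knockdown 3 had the highest Il1b, at 10.1 CPM, and the lowest marker sum, at 518 CPM. Knockdown 7 had the highest marker sum, at 1122 CPM, and Il1b near the top, at 9.16 CPM. What part the marker-bearing cells have in the changes of Il1a, Il1b and Il1rn was not tested.

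**Figure D3:**
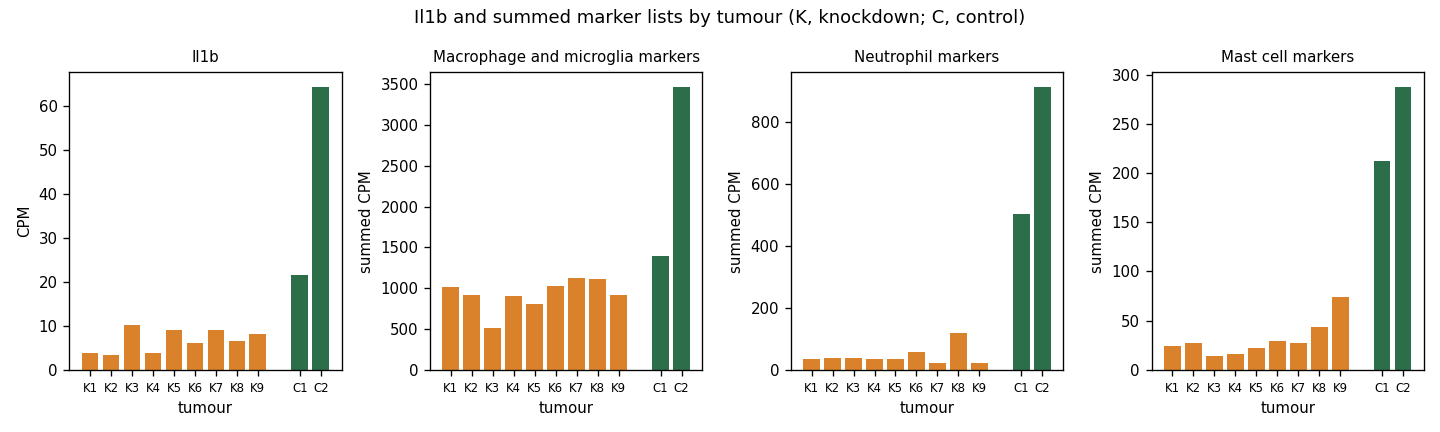
Il1b in CPM and the summed CPM of the macrophage and microglia, neutrophil and mast cell marker lists on the vertical axes, 1 bar per tumour (K1 to K9 knockdown, C1 and C2 control). All 4 quantities are higher in both controls than in any knockdown tumour. Control 2 is the highest in each, which for the neutrophil list rests on Mmp9.

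Of the gp130 cytokines, which share the receptor chain Il6st, the ligands varied widely between tumours. Among 6 tested receptor genes 1 rose and 2 fell (50% called, against 23.3% of all tested genes). Il6st itself was steady, between 113 and 188 CPM with a median of 155, against 140 and 137 CPM (0.13 ± 0.15, adjusted p = 0.55). Il11ra1, the specific chain for IL-11, ranged from 17.98 to 36.7 CPM (median 22.6) against 5.62 and 7.96 CPM. The groups were well apart and the log2 fold change was 1.99 ± 0.33 (edgeR, adjusted p = 0.0018). It passed with either control left out, at 1.76 without control 1 and 2.26 without control 2. Its gene model overlaps 6 others, among them Galt and Ccl27a, and it has the near-identical copy Il11ra2 (9 counts in all), so that the assignment of its reads is uncertain. Il6ra, the chain that binds IL-6, fell from 37.0 and 25.3 CPM to between 5.69 and 20.2 CPM (median 13.1; -1.29 ± 0.33, adjusted p = 0.017). Without control 1 this was -0.99 and did not pass (adjusted p = 0.22). Lifr, the LIF receptor, was between 43.7 and 72.7 CPM (median 55.8) and at 191 and 68.0 CPM in the controls, so that knockdown tumours 7 and 9 lay above control 2. Its call (-1.21 ± 0.28, adjusted p = 0.010) rests on control 1, without which the log2 fold change was -0.28 (adjusted p = 0.57). Osmr, the oncostatin M receptor on the same stretch of chromosome 15, was at 89.6 ± 31.7 CPM (SD, n = 9) against 32.9 and 49.7 CPM and did not pass (1.12 ± 0.42, adjusted p = 0.072), nor did Il27ra (1.12 ± 0.44, adjusted p = 0.082). Il27ra depended on the controls, with 2.13 and a call without control 2 (adjusted p = 0.035) and 0.54 without control 1. It also passed by DESeq2 (adjusted p = 0.037) and without knockdown 3 (adjusted p = 0.0496), as did Osmr (adjusted p = 0.028 and 0.013).

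Il11 had the second largest spread over the knockdown tumours of all members with a mean of at least 5 CPM, with a coefficient of variation of 136%. It ranged from 8.23 CPM in knockdown 9 to 136 CPM in knockdown 8 and 224 CPM in knockdown 5, with a median of 16.5, and was at 54.5 and 7.39 CPM in the controls. Lif, which maintains neural stem cells, was highest in the same tumours, at 117 CPM in knockdown 5 and 80.4 CPM in knockdown 8, with a median of 34.7 and 14.1 CPM in the lowest, against 31.6 and 34.2 CPM. Osm, a neighbour of Lif on chromosome 11, reached 14.6 CPM in knockdown 5 and was between 1.02 and 4.26 CPM in the others (median 2.80), against 3.85 and 6.08 CPM. Il6 stayed between 0.273 and 2.14 CPM, against 1.00 and 1.13 CPM. With such spreads none of Il11 (0.83 ± 1.28), Lif (0.43 ± 0.66), Osm (-0.30 ± 0.77) and Il6 (0.09 ± 0.69) passed the test, with adjusted p between 0.66 and 0.94.

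**Figure D4:**
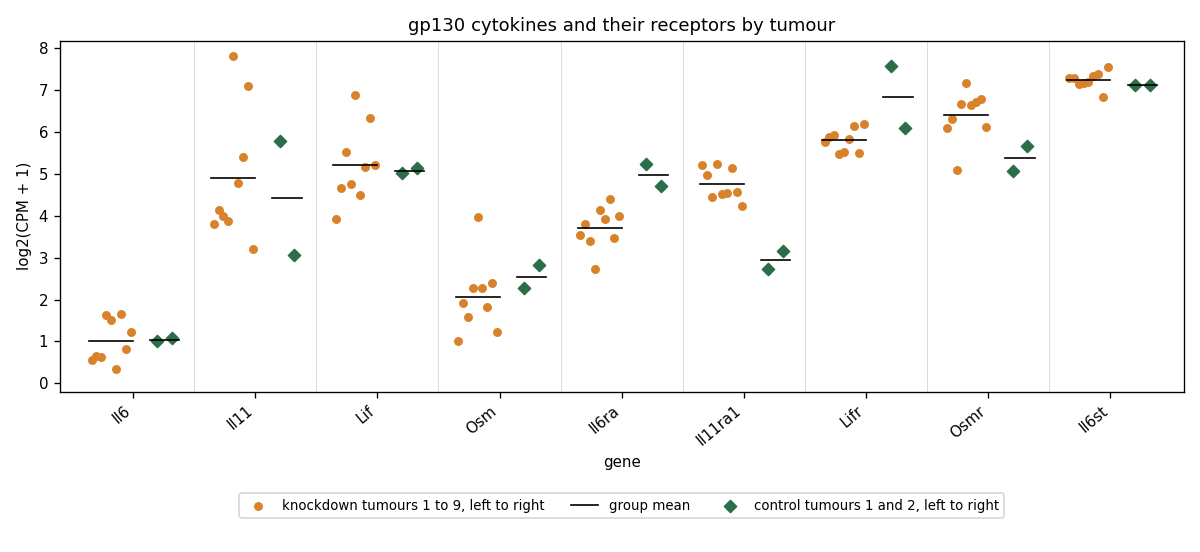
Level of gp130 cytokines and their receptors in each tumour, as log2(CPM + 1) on the vertical axis with genes on the horizontal axis; circles are knockdown tumours 1 to 9 from left to right, diamonds the controls, bars the group means. Il11 and Lif are highest in knockdown tumours 5 and 8, while Il6st lies between 113 and 188 CPM in all knockdown tumours.

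Il23a, the specific subunit of IL-23, rose from 0.769 and 0.313 CPM, 15 counts over both controls, to between 1.06 and 7.66 CPM (median 4.18). No knockdown tumour overlapped the controls, and the log2 fold change was 2.97 ± 0.78 (edgeR, adjusted p = 0.019). It did not pass with either control left out (adjusted p = 0.081 and 0.16) or by limma-voom (adjusted p = 0.065). Its partner subunit Il12b, needed for a complete IL-23 or IL-12, had 12 counts over the 9 knockdown tumours and 4 over the controls, and Il12a did not pass (0.56 ± 0.65, adjusted p = 0.56). The shared receptor chain Il12rb1 fell from 2.92 and 4.82 CPM to between 0.398 and 2.05 CPM (-1.61 ± 0.43, adjusted p = 0.019; 0.056 and 0.22 without control 1 or 2). Il12rb2 was also below both controls in every knockdown tumour and narrowly missed the threshold (-0.85 ± 0.29, adjusted p = 0.054). It passed by DESeq2 and limma-voom (adjusted p = 0.027 and 0.048).

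Among receptors of the common gamma chain cytokines, which drive lymphocytes and some myeloid cells, Il21r alone passed. It ranged from 2.35 to 6.57 CPM (median 4.31) in the knockdown tumours and was at 12.4 and 26.1 CPM in the controls. The groups did not overlap, and Il21r fell by 2.08 ± 0.30 on the log2 scale (edgeR, adjusted p = 0.00087). The value was -1.45 without control 2 (adjusted p = 0.035). The gamma chain itself, Il2rg, did not pass (-0.35 ± 0.48, adjusted p = 0.63). Il4ra, the chain for IL-4 and IL-13, was between 79.6 and 226 CPM in 8 knockdown tumours and 434 CPM in knockdown 7, against 468 and 356 CPM (-1.22 ± 0.50, adjusted p = 0.096). Without knockdown 7 it passed (-1.54, adjusted p = 0.013), as in the fit without knockdown tumours 7 and 9 (-1.63, adjusted p = 0.0095). Both fits leave out the highest knockdown value, so that a stronger fall follows from that choice. Its partner Il13ra1 was at 69.2 ± 24.0 CPM (SD, n = 9) against 74.8 and 89.0 CPM (-0.24 ± 0.30, adjusted p = 0.59). Il15, which sustains natural killer cells, was between 1.72 and 11.9 CPM against 0.923 and 1.88 CPM. It missed the threshold (2.15 ± 0.75, adjusted p = 0.058), but passed by DESeq2 (adjusted p = 0.0080) and without knockdown 3 or knockdown 9 (adjusted p = 0.029 and 0.036). Il4 and Il13, the ligands of Il4ra, had 16 and 30 counts over all tumours.

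Il17rc, a subunit of the receptor for IL-17A and IL-17F, was the most uniform of the members that rose. It ranged from 31.7 to 43.5 CPM (median 38.1), against 20.7 and 18.5 CPM, and its coefficient of variation over the knockdown tumours was 9.25%. The log2 fold change of 0.98 ± 0.14 (edgeR, adjusted p = 0.00072) passed with either control left out. Its partner Il17ra was between 27.05 and 41.9 CPM against 29.8 and 30.3 CPM (0.23 ± 0.15, adjusted p = 0.30), so that the subunits were not shown to move together. The read ratio of Il17rc to Il17ra, also chosen after the values were seen, was between 0.889 and 1.396 in the knockdown tumours. In the controls it was 0.695 and 0.610. Il17rd, an inhibitor of FGF signalling also called Sef, ranged from 52.4 to 234 CPM, against 115 and 43.5 CPM, and did not pass (0.75 ± 0.52, adjusted p = 0.31). The gene of IL-17A was not among the members, so that its level is not given. Of the 5 ligands of this family that were members, Il17c, Il17f and Il25 were not tested, with 12, 8 and 39 counts. Il17b and Il17d did not pass.

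In the IL-10 family 1 of 5 tested receptor genes rose and 1 fell (20% each, against 10.3% and 13.0% of all tested genes). The tested ligand did not pass. Il10ra, the chain specific to IL-10, fell from 17.5 and 43.1 CPM to between 5.80 and 16.7 CPM (median 12.9; -1.33 ± 0.33, edgeR adjusted p = 0.015). Without control 2 the value was -0.53 (adjusted p = 0.42). Il20rb, which pairs with Il20ra for the IL-20 group of cytokines, rose from 2.46 and 3.63 CPM to between 5.63 and 15.1 CPM (median 7.84; 1.63 ± 0.43, adjusted p = 0.018; 0.18 and 0.068 without control 1 or 2). Il20ra itself was near the floor in most knockdown tumours, with 27 counts over 9 tumours against 33 over the controls, and did not pass (-2.40 ± 0.90, adjusted p = 0.072). Il10, an anti-inflammatory ligand, had the largest spread of all members with a mean of at least 5 CPM, a coefficient of variation of 142%. It was at 22.1 CPM in knockdown 7 and 10.7 CPM in knockdown 8, between 0.265 and 4.96 CPM in the other 7, and at 11.8 and 7.83 CPM in the controls (-0.94 ± 1.19, adjusted p = 0.60). The shared chain Il10rb did not pass (0.47 ± 0.23, adjusted p = 0.15). Outside these families Il16, a chemoattractant for CD4-bearing cells, did not pass either (1.17 ± 0.53, adjusted p = 0.13).

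Csf2 and Il34, both growth factors of myeloid cells, fell, and Csf3 did not pass. Csf2, or GM-CSF, was scarce in the knockdown tumours, with 36 counts over 9 libraries and between 0.0784 and 0.733 CPM (median 0.273), against 1.38 and 5.14 CPM from 100 counts. The log2 fold change was -3.55 ± 0.56 (edgeR, adjusted p = 0.0014), -4.20 without control 1 and -2.32 without control 2, where it no longer passed (adjusted p = 0.075). Il34, a ligand of the CSF1 receptor on which microglia depend, fell from 102 and 80.2 CPM to between 27.3 and 75.8 CPM (median 41.2). Knockdown 7 came nearest to the controls, and the change of -1.0 ± 0.28 (edgeR, adjusted p = 0.025) did not pass without control 1 (adjusted p = 0.24) or without control 2 (adjusted p = 0.073). Csf3, or G-CSF, was between 0.165 and 3.48 CPM against 0.462 and 0.313 CPM and did not pass (2.19 ± 0.88, adjusted p = 0.092). The receptors of these factors that carry other symbols belong to a list of cytokine genes described further on. The macrophage, neutrophil and mast cell sums moved in the same direction as Csf2 and Il34, and their part in these changes was not tested.

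Of 10 tested ligands of the TNF superfamily 2 fell (20%, against 13.0% of all tested genes) and 0 rose. Tnf was scarce in all tumours, between 0.305 and 0.727 CPM (median 0.593) against 1.00 and 2.44 CPM, from 74 and 52 counts. It fell by 1.58 ± 0.36 (edgeR, adjusted p = 0.0093), but without control 2 the value was -0.80 (adjusted p = 0.31). Its neighbours Lta and Ltb, which encode the lymphotoxins, had 10 and 44 counts over all tumours and were not tested. Tnfsf4, the OX40 ligand, was at 2.85 and 2.76 CPM in the controls and between 0.0611 and 1.02 CPM (median 0.257) in the knockdown tumours, from 81 and 52 counts. The change was -2.79 ± 0.67 (adjusted p = 0.013), and -2.77 and -2.81 without control 1 and control 2 (adjusted p = 0.087 and 0.070). Tnfsf18, its neighbour on chromosome 1 and the ligand of Tnfrsf18, was between 1.06 and 8.63 CPM against 1.08 and 0.940 CPM and did not pass (1.89 ± 0.86, adjusted p = 0.13).

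Tnfrsf12a, also called Fn14, the TWEAK receptor that is known from invasive glioma, showed the most certain change among TNF receptors. It was between 43.9 and 101 CPM (median 72.3) in the knockdown tumours and at 283 and 226 CPM in the controls. The groups lay far apart, and the log2 fold change of -1.81 ± 0.26 (edgeR, adjusted p = 0.00086) passed with either control left out. The model of Hcfc1r1 overlaps it in the table, so that the assignment of some reads is uncertain. Tnfrsf9, or 4-1BB, a costimulatory receptor, fell from 58.9 and 23.7 CPM to between 2.27 and 16.5 CPM (median 4.77; -2.59 ± 0.61, adjusted p = 0.011), and did not pass without control 1 (-1.79, adjusted p = 0.22). Tnfrsf8, or CD30, was near the floor, between 0.0823 and 0.597 CPM against 1.00 and 1.503 CPM (-1.81 ± 0.46, adjusted p = 0.017; 0.065 and 0.18 without control 1 or 2).

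Tnfrsf26, Tnfrsf22 and Tnfrsf23 lie within 78.2 kb on chromosome 7 of mm9 (150793568 to 150871777), and Tnfrsf22 and Tnfrsf23 encode decoy receptors for TRAIL. Tnfrsf23 ranged from 8.91 to 33.7 CPM (median 13.3) against 158 and 47.7 CPM, and Tnfrsf22 from 7.60 to 17.0 CPM (median 13.6) against 53.5 and 26.4 CPM. Both lay below the controls in every knockdown tumour, with log2 fold changes of -2.46 ± 0.47 and -1.64 ± 0.26 (edgeR, adjusted p = 0.0041 and 0.0015). Control 1 was the higher of the controls for both, and without it the values were -1.35 and -1.04 (adjusted p = 0.20 and 0.069). For Tnfrsf23 the value without control 2 was -3.08. Tnfrsf26 was between 2.28 and 25.2 CPM against 6.69 and 6.39 CPM and did not pass (0.90 ± 0.84, adjusted p = 0.46). The genes of this cluster are related copies, between which reads may have been split or lost. Tnfrsf10b, the TRAIL receptor that carries a death domain, rose from 3.62 and 2.44 CPM to between 4.27 and 18.1 CPM (median 8.04; 1.53 ± 0.47, adjusted p = 0.037). It did not pass with either control (adjusted p = 0.14 and 0.24), knockdown 1 or knockdown 5 left out, nor by limma-voom (adjusted p = 0.057).

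Tnfrsf11b, osteoprotegerin, a secreted decoy for RANKL and TRAIL, had the second largest increase. It ranged from 23.5 CPM in knockdown 1 to 171 CPM in knockdown 7 (median 54.9), and was at 6.85 and 6.70 CPM in the controls. Even the lowest knockdown tumour had over 3 times the control level, and the log2 fold change was 3.30 ± 0.69 (edgeR, adjusted p = 0.0063). It was 3.31 and 3.28 with control 1 or 2 left out, with adjusted p of 0.071 and 0.061. RANKL itself, Tnfsf11, was between 0.265 and 10.8 CPM against 6.54 and 16.1 CPM (-1.12 ± 0.77, adjusted p = 0.31), and its receptor Tnfrsf11a did not pass (-0.96 ± 0.33, adjusted p = 0.057). The read ratio of Tnfrsf11b to Tnfsf11, chosen after the values were seen, was between 6.14 and 155.5 in the knockdown tumours, with a median of 12. In the controls it was 1.05 and 0.416. The 155.5 was that of knockdown 9 and rests on 4 counts of Tnfsf11. Tnfrsf13c, the BAFF receptor of B cells, had the largest fitted increase (3.43 ± 0.91, adjusted p = 0.020) on 112 counts in the knockdown tumours and 2 in the controls. The summed counts gave a ratio of 12.4, with an exact 95% interval of 3.36 to 103.9 for counting error alone. Without control 2 it did not pass (2.40, adjusted p = 0.15) and lay below Tnfrsf11b. Without control 1 it passed (6.65, adjusted p = 0.031), but the remaining control had 0 counts and that fitted value is no bound. Of the 6 B cell markers Ms4a1 and Pax5 did not exceed 0.154 CPM in any tumour, and Cd79a was between 0.265 and 1.77 CPM against 0.539 and 0 CPM and did not pass (2.22 ± 0.94, adjusted p = 0.11). The summed level of the list was between 4.35 and 18.02 CPM against 14.2 and 17.9 CPM. Blnk made up most of this sum in the controls, at 12.3 and 16.1 CPM, and was between 3.10 and 15.6 CPM in the knockdown tumours. The sum is thus mainly a measure of 1 gene. What part B cells have in the change of Tnfrsf13c was not tested. Tnfrsf18, or GITR, rose from 2.23 and 2.88 CPM to between 3.50 and 8.29 CPM (median 6.07; 1.17 ± 0.32, adjusted p = 0.021; 0.19 and 0.075 without control 1 or 2).

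**Figure D5:**
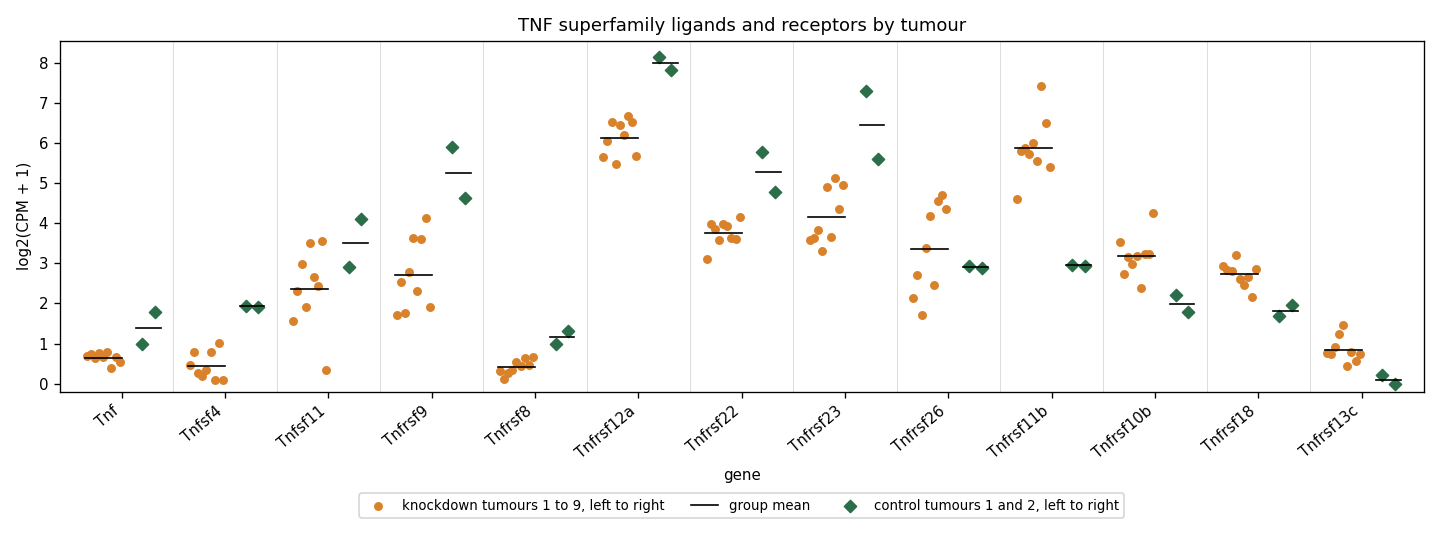
Level of TNF superfamily genes in each tumour, as log2(CPM + 1) on the vertical axis with genes on the horizontal axis; circles are knockdown tumours 1 to 9 from left to right, diamonds the controls, bars the group means. Tnfrsf12a, Tnfrsf22 and Tnfrsf23 lie below both controls in all 9 knockdown tumours, Tnfrsf11b, Tnfrsf10b and Tnfrsf18 above both, and Tnfrsf26 overlaps them.

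The genes that carry these signals inside the cell changed at about the rate of all genes. Of 29 genes of the JAK-STAT pathway 5 rose and 3 fell (27.6%, against 23.3% of all tested genes), with a median log2 fold change of 0.10. Stat5b rose from 35.8 and 42.8 CPM to between 62.5 and 106 CPM (1.11 ± 0.19, edgeR adjusted p = 0.0021), its close paralog Stat5a by 1.03 ± 0.24 and Stat4, which IL-12 and IL-23 receptors use, by 2.35 ± 0.55. Socs2, a feedback inhibitor that STAT5 is known to induce, went down from 25.6 and 30.3 CPM to between 7.26 and 11.8 CPM (-1.50 ± 0.19, adjusted p = 0.00047), beside the phosphatase Ptpn6 (-0.96 ± 0.28). Of 45 genes that act below the IL-1, IL-17 and TNF receptors 4 rose and 6 fell (22.2%; median -0.09). Cflar, an inhibitor of caspase-8, fell from 284 and 186 CPM to between 93.6 and 150 CPM (-0.96 ± 0.17, adjusted p = 0.0025), and Traf3 and Nfkb1 fell by 0.68 ± 0.12 and 0.45 ± 0.10. Ripk3, the kinase of necroptosis, rose from 10.001 and 13.8 CPM to between 18.6 and 39.5 CPM (1.35 ± 0.30, adjusted p = 0.0093), as did Irak3 (1.23 ± 0.32) and Map3k7 (0.41 ± 0.12). Without control 1, 1 JAK-STAT gene was higher and 3 were lower, and 0 and 2 genes of the IL-1, IL-17 and TNF receptor list; without control 2 these counts were 1 and 2, and 1 and 4.

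Of 10 genes that process or release cytokines 4 fell and 1 rose (50% called, against 23.3% of all tested genes). Nlrp3, the sensor of the inflammasome that matures IL-1β, fell from 5.46 and 10.4 CPM to between 1.53 and 3.35 CPM (-1.89 ± 0.30, edgeR adjusted p = 0.0015). The sheddase Adam10 fell by 0.94 ± 0.14 and the protease Furin by 0.70 ± 0.20, while the inflammasome gene Nlrc4 rose by 1.28 ± 0.40. Among 26 tested cytokine and receptor genes with other symbols 10 fell and 4 rose (53.8% called, against the same 23.3%; median -0.73). Csf2rb, the signalling chain of the GM-CSF, IL-3 and IL-5 receptors, fell from 53.0 and 97.8 CPM to between 16.6 and 34.1 CPM (-1.58 ± 0.23, adjusted p = 0.00094) and Flt3 and Cd74 by 4.05 ± 0.54 and 3.29 ± 0.51. Epor, the erythropoietin receptor (1.59 ± 0.25), Crlf3 (0.61 ± 0.17) and Ifngr2 (1.08 ± 0.34) rose. Csf1r and Cd74, which are in this list, are in the macrophage list too. Of 9 tested TNF family genes with other symbols, Fas rose (1.73 ± 0.42) and Relt fell (-1.05 ± 0.27), 22.2% of the list and near the share of all genes. With control 1 or control 2 left out 7.61% and 10.4% of all genes were called. Without control 1 or control 2, respectively, 6 and 5 of the genes with other cytokine symbols fell and 1 rose in each case, 2 of the processing genes fell in each case and 0 rose, and of the TNF family genes 0 and 1 rose and 0 fell.

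The 82 genes did not share 1 order over the knockdown tumours. Knockdown 7 was the highest of the 9 for 20 genes, among them Tnfrsf11b, Il10, Il4ra and Il34. The lowest value was most often that of knockdown 3, for 19 genes, Il4ra, Osmr, Il10ra and Il17rc among them, and then that of knockdown 9, for 17 genes including Il1r1, Il1rl2, Il23a and Tnfsf11. Knockdown 5 was the highest for 9 genes, with Il11, Lif, Osm, Osmr and Il23a among them, and the lowest for 1. The same counts over all tested genes were not made, so these cannot be read as particular to the cytokine and receptor genes.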

How the data were processed

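For every Ensembl gene and each of the 11 tumours the authors deposited the raw read count, a whole number. The submitters' processing notes name TopHat 1.4.0, HTSeq and mm9; how these were set, and whether strand was used, is not given in the sources used here. If it was not, reads where genes overlap may have been left out or assigned to either gene. Besides Il11ra1 and Tnfrsf12a, the called genes Il1a, Il1b, Csf2, Il34, Il10ra and Tnfrsf18 overlap other gene models. TRIzol RNA went into TruSeq RNA libraries, per the labels' protocols. Libraries held 11209233 to 18638382 counts.

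Groups and replicate numbers came from the sample titles. Nothing in the labels ties a tumour to its own cell preparation; p-values then measure only the spread between these tumours, in part perhaps technical. Counts were tested with edgeR 4.0.16 in R 4.3.3: filterByExpr kept 16241 genes, TMM scaled the libraries, and the quasi-likelihood F-test without covariates ran over all 11 libraries with Benjamini-Hochberg adjustment over all genes tested, at a threshold of 0.05. An SE is the size of the log2 fold change divided by the square root of F. The script was tested on simulated data. Alternatives were RLE factors, other filters, DESeq2 1.42.0, limma-voom (limma 3.58.1), robust dispersions, a test against a 1.5-fold change, a replicate block, and subsets of the libraries.

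Members and lists were chosen with earlier results of these data known. Named were all called members, members the choice lists by symbol, classical cytokines, shared receptor chains and the 5 most counted ligands and receptors; partners of these (such as Il1r2, Il18rap, Tnfsf11, Tnfrsf11a, Tnfrsf26, Il15, Il27ra, Tnfsf18, Il12rb2, Il20ra) and members under the filter were added after their values were seen. From each pathway list up to 3 genes per direction with the smallest p were named, except 1 that is not reported here. Exon lengths came from GENCODE M21 by Ensembl identifier (116 of 117 genes). Counting intervals cover counting error only.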

Additional observations from a re-analysis of the deposited data

Results flagged for a closer look

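Among 48 named members tested over the 9 knockdown tumours on the log2(CPM + 1) scale, 3 had 1 tumour far from the other 8, where chance flags about 1 in 20 groups. Csf2 was highest in knockdown 7 at 0.733 CPM, the next tumour being at 0.345 CPM. Il1a was lowest in knockdown 6 at 0.273 CPM, on 3 counts. Osm was highest in knockdown 5 at 14.6 CPM, with the next tumour at 4.26 CPM.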

How the results depend on the processing

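The calls depended on the controls and on the replicate block. With 1 library left out at a time the number of members called higher lay between 3 and 15 and the number called lower between 8 and 20, the low ends of both without a control. Against a 1.5-fold change 5 members were higher and 11 lower. With the replicate number as a replicate block 3 were higher and 5 lower, all 3 and 2 of them also called without it. That number pairs only 4 of the 11 libraries and leaves 1 residual degree of freedom, and the deviations of same-numbered libraries correlated at -0.142 and 0.0165, so the numbers were not taken as a pairing. RLE factors (10 and 19), no filter (10 and 19), a filter of 1 CPM in 2 libraries (10 and 16), DESeq2 (15 and 20), limma-voom (8 and 21), robust dispersions (10 and 18), the 7 libraries with Xist reads (11 and 21) and the fit without knockdown tumours 7 and 9 together (11 and 21) stayed within 1.5 times of the main counts. Ezh2 did not pass against a 1.5-fold change (-1.59), under the block (-1.55) or without control 1 or 2 (-1.70 and -1.48), and lay between -1.76 and -1.48 with any 1 library left out. Some members not called in the main fit passed under an alternative. DESeq2 added Csf3, Il12rb2, Il15, Il17rb, Il27ra, Osmr and Tnfrsf11a. RLE factors added Il12rb2, and limma-voom added Il12rb2, Il18rap and Il20ra but lost Il23a and Tnfrsf10b. The fit without knockdown tumours 7 and 9 added Il12rb2, Il15, Il4ra and Tnfrsf11a. No called member changed direction under any alternative. Among members not called, the sign turned under the block for Lif (-0.82), Il6 (-1.01), Il11 (-0.50) and Tnfrsf26 (-0.58), with only the Xist libraries for Osm (0.10) and Il1r2 (0.12), without knockdown tumours 7 and 9 for Il6 (-0.18) and Il1r2 (0.015), and by limma-voom for Il6 (-0.18). With 1 library left out it turned for Osm (between -0.87 and 0.065), Il6 (-0.11 and 0.21), Il2rg (-0.82 and 0.37), Il1r2 (-0.26 and 0.024) and Tnfrsf11a (-1.54 and 0.041). The cause was not tested. Of the 35 untested members 26 had under 10 counts in every library.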

Other observations

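Of the 35 members below the filter 3, Il1f5, Il31 and Il22ra1, had 0 counts in all 11 libraries. Il18r1, the ligand-binding chain of the IL-18 receptor, had 5 and 10 counts in the controls and between 0 and 2 in each knockdown tumour, 11 in all. Per count it was 6.15-fold lower in the knockdown tumours, with an exact 95% interval of 2.64 to 14.8 for counting error alone, and in the fit without a filter on low counts it was the 1 untested member that passed (edgeR, adjusted p = 0.011). It lies between Il1rl1, which fell, and Il18rap on chromosome 1. Some scarce genes had many of their counts in 1 tumour. Il1f10 had 21 of 31 counts in knockdown 3, Il7, which supports lymphocyte precursors, had 18 of 39 in knockdown 8, and Il13 had 11 of 30 in knockdown 8. Tnfsf15 had 11 of 23 counts in control 2.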
